A study of Mus musculus with 14 samples.

Results

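The HOXA genes examined here were Hoxa2, Hoxa3, Hoxa4, Hoxa5, Hoxa6, Hoxa7, Hoxa9, Hoxa10 and Hoxa11. They were chosen by name and make up 9 of the 52550 genes in the count table. The genes lie within 83394 bases of mouse chromosome 6 (chr6:52162417-52245810, build GRCm38), all on the minus strand. RNA had been sequenced from 4 WT HSPC samples, 4 Mir139KO HSPC samples, 3 MLL-AF9 neo cultures and 3 MLL-AF9 puro cultures.

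HSPCs were bone marrow cells of C57BL/6 mice, aged 8 to 20 weeks and enriched for hematopoietic stem and progenitor cells with a depletion kit. Mir139KO mice lacked the microRNA gene Mir139. MLL-AF9 cells were WT HSPCs that had been grown with SCF, GM-CSF, IL-6 and IL-3, and then transduced with a retrovirus, either pMSCV-MLL-AF9-neo or the puromycin vector pMSCV-MLL-AF9-puro. They were selected for the resistance gene and re-plated in semi-solid medium. The retroviral promoter drives the fusion gene in all infected cells, so its level need not match that of a chromosomal translocation. The labels do not say whether each HSPC sample was lysed at once or expanded first. No sample of cultured HSPCs without MLL-AF9 was among the 14 libraries, so fusion gene, culture and selection cannot be told apart in any comparison of MLL-AF9 cells with HSPCs. Nothing in the labels says that replicates came from separate mice or transductions. The p-values therefore measure the spread between these samples, which may be technical.

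HOXA genes encode homeodomain transcription factors that give cells positional identity in the embryo. In blood, the central genes of the cluster are active in stem and progenitor cells and are shut down as cells mature. MLL, the histone methyltransferase encoded by Kmt2a, keeps them active, and MLL fusions such as MLL-AF9 bring elongation factors and DOT1L to them. HOXA9 binds DNA together with MEIS and PBX proteins.

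Total counts were 35016668 to 45877994 per library. Mir139, the deleted gene, was listed at 0 in all 14 libraries, so the genotype labels could not be checked. The noncoding RNA gene Gm26917 took over 25% of the counts in 4 HSPC libraries (WT HSPC 3 and 4, Mir139KO HSPC 1 and 4) and 7.55% to 35.4% over all libraries. HSPC libraries also held RNA of mature blood cells. The summed level of 6 neutrophil markers was 333 to 8455 CPM (counts scaled to a common library total) in WT HSPCs and 249.99 to 3779 CPM in MLL-AF9 cells. The 6 erythroid markers summed to 782 to 1073 CPM in WT HSPCs and 0.820 to 2.38 CPM in MLL-AF9 cells, and Car1 was at 0 in all 6 cultures. The 9 stem and progenitor markers were present in HSPCs, at a sum of 400.1 to 572 CPM, and summed to 51.1 to 143 CPM in MLL-AF9 cells. All 6 erythroid, 4 megakaryocyte, 6 B cell and 5 T and NK cell markers were called lower in MLL-AF9 cells than in WT HSPCs. So were 2 of 6 neutrophil, 3 of 4 primary granule and 3 of 5 stroma and endothelium markers. Of 5 monocyte and macrophage markers, 3 were called lower and 1 higher. Over all 17077 genes tested, 5027 were called lower. The part of cells of these types in the results on HOXA genes was not tested. In such bulk RNA, fewer cells of a type and less RNA per cell cannot be told apart.

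Of the 9 genes, 5 had counts and 4 were listed at 0 in every library. The 4 at 0 were Hoxa3, Hoxa4, Hoxa5 and Hoxa6, which lie next to each other in the middle of the cluster. None of them has a base outside the span of other annotated genes. Hoxa3 spans 44275 bases and is covered by Gm28308, and Hoxa4, Hoxa5 and Hoxa6 lie inside both of these spans.

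The same held across the table. Of 12187 genes without a base of their own on either strand, 12106 (99.3%) were at 0 in all 14 libraries. Among the 5993 covered by genes of the opposite strand only, 5934 were at 0. Of 40216 genes with at least 1 base of their own, 11641 (28.9%) were at 0. In the window of 100000 bases on each side of the cluster, 20 of 20 genes without a base of their own were at 0, and 20 of 22 genes with such bases had counts. The table therefore holds no usable value for Hoxa3 to Hoxa6, and their zeros are not a measurement of expression.

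Of the 5 genes with counts, Hoxa10 (chr6:52231197-52240854) had its whole span of 9658 bases to itself. Hoxa9 (chr6:52223100-52231089) had 7905 of 7990 bases and Hoxa7 (chr6:52214491-52221854) had 6778 of 7364. Hoxa11 (chr6:52242106-52245810) kept 2287 of 3705 bases, because Hoxa11os overlaps its 5′ part on the other strand. Hoxa2 (chr6:52162417-52164831) kept 942 of 2415 bases. The counts of Hoxa2 and Hoxa11 thus come from part of each gene.

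**Figure D1:**
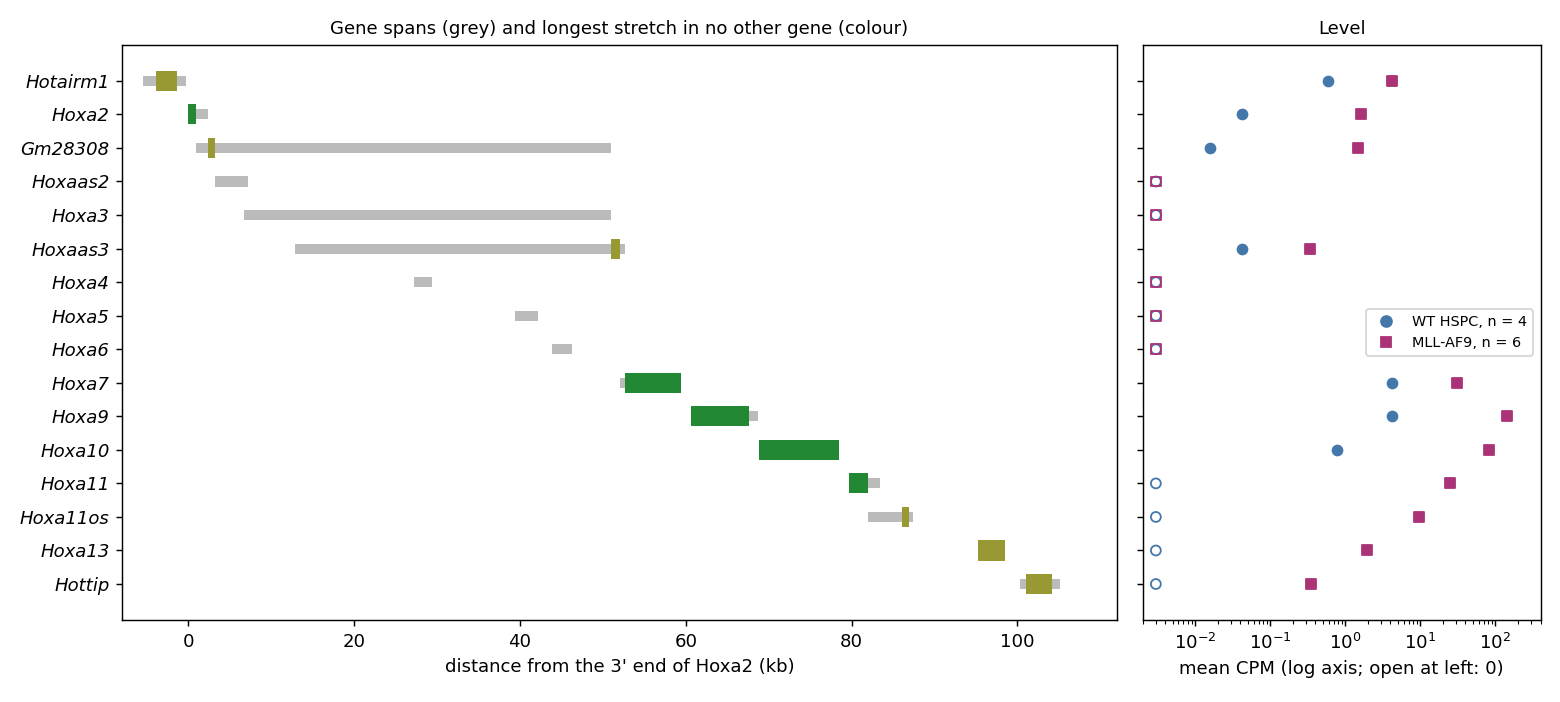
Left, spans of genes at the HOXA cluster by distance from the 3′ end of Hoxa2 in kb, with the longest stretch found in no other gene in colour (green for the 9 genes examined, olive for others). Right, mean CPM on a log axis in WT HSPCs (circles, n = 4) and MLL-AF9 cells (squares, n = 6), with open symbols for genes at 0. Hoxa3 to Hoxa6 have no coloured stretch and no counts.

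The sequences around the start sites of Hoxa7, Hoxa9, Hoxa10 and Hoxa11 are shown because these 4 genes carried nearly all of the HOXA counts. They are RefSeq sequences of GRCm38.p6, from 250 bases before to 50 bases after the start, on the minus strand and written 5′ to 3′. RefSeq promoters were found for 8 of the 9 genes, with 9 start sites. Capitals mark matches on either strand to TGACAG (a MEIS site), TGATNNAT (a HOX-PBX site), TTTATG (a CDX site) or TATAAA (the core of a TATA box).
Hoxa7, chr6:52218524-52218823: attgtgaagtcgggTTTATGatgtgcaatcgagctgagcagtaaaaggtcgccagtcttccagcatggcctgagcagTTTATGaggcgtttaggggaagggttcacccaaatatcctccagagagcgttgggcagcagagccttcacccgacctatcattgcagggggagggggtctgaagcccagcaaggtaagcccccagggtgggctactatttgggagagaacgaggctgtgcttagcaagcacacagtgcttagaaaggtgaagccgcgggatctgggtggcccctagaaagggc
Hoxa9, chr6:52227321-52227620: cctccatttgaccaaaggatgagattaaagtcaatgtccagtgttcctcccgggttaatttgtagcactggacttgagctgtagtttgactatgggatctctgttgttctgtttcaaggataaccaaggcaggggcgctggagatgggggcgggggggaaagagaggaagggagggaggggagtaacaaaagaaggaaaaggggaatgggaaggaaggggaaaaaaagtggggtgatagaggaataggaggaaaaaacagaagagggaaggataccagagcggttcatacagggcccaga
Hoxa10, chr6:52234890-52235189: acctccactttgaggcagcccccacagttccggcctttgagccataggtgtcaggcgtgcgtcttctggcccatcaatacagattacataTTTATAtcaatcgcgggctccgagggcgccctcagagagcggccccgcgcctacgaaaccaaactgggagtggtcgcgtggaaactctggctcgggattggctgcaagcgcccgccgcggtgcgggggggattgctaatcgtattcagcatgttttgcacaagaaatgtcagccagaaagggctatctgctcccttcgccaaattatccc
Hoxa11, chr6:52245761-52246060: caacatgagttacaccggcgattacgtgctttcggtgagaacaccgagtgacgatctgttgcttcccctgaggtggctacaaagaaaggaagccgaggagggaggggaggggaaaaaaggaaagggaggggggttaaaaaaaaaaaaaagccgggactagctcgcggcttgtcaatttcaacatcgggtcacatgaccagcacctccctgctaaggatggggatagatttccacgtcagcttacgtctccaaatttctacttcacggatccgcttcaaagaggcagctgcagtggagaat

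The windows of these 4 genes held few of the letters searched. Hoxa7 had TTTATG at positions -236 and -173 from the start, and this motif was in 11.9% of all 32851 promoters. The Hoxa10 window shown had TATAAA on the other strand at position -160, a motif found in 13.6% of promoters. The other Hoxa10 window (chr6:52240805-52241104), at the 5′ end of the gene span, held no match. The Hoxa9 and Hoxa11 windows held no match to any of the 4 motifs. TGACAG, found in 19.2% of promoters, was in the windows of Hoxa2 and Hoxa3, and TGATNNAT, found in 8.85%, in that of Hoxa2.

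The windows also differed in CpG dinucleotides, the sites of DNA methylation. The Hoxa10 window shown had 21, and 24.8% of promoters had as many or more. The other Hoxa10 window had 12, and 39.6% of promoters had as many or more. Hoxa11 had 15, Hoxa7 had 9 and Hoxa9 had 4, against a median of 7 over all promoters. The RefSeq windows shown, of genes that were high together in MLL-AF9 cells, thus differed in CpG content. Those of Hoxa7, Hoxa9 and Hoxa10 lie inside the gene spans given above and not at their 5′ ends. Which start sites were in use was not tested.

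The first comparison asked which HOXA genes differ between MLL-AF9 cells and the WT HSPCs they were made from. All 5 genes with counts were higher in MLL-AF9 cells. Hoxa10 rose most among the genes with counts in every WT library, at 105-fold, followed by Hoxa9 at 33.3-fold and Hoxa7 at 7.37-fold. Hoxa11 went from 0 counts in each WT library to 392 or more in each culture. Higher levels were called for 32.8% of all 17077 genes tested, and changes in either direction for 62.2%, so a call by itself was common in this comparison.

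Hoxa9, the best studied HOX gene of myeloid leukemia, had 194, 264, 86 and 101 counts in WT HSPC libraries 1 to 4. It had 8090, 6738 and 8795 counts in the neo cultures and 6591, 6223 and 7370 in the puro cultures. No culture came near the HSPC range. As CPM, with totals scaled by TMM factors, Hoxa9 was 4.19 ± 1.40 (SD, n = 4) in WT HSPCs and 141 ± 14.7 (SD, n = 6) in MLL-AF9 cells. The log2 fold change was 5.06 ± 0.32 (SE) and the adjusted p was 5.04e-07.

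Hoxa10 supports growth of immature myeloid cells when its level is high. It was low in WT HSPCs, with 26, 43, 29 and 16 counts. The neo cultures had 2701, 2635 and 3864 counts and the puro cultures had 5556, 4503 and 6313. All 6 cultures were far above the HSPC libraries, and every puro culture was above every neo culture. Hoxa10 was 0.773 ± 0.239 CPM (SD, n = 4) in WT HSPCs and 82.7 ± 29.1 CPM (SD, n = 6) in MLL-AF9 cells. In log2 units Hoxa10 rose by 6.72 ± 0.44 (SE) and the adjusted p was 6.28e-07.

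Hoxa7, which like Hoxa9 is a target of MLL, had the smallest rise among the HOXA genes with counts. It had 191, 198, 116 and 116 counts in WT HSPC libraries 1 to 4. The neo cultures had 1457, 1946 and 2400 counts and the puro cultures had 1399, 956 and 1552. The groups did not overlap. Hoxa7 was 4.18 ± 0.339 CPM (SD, n = 4) in WT HSPCs and 31.2 ± 8.78 CPM (SD, n = 6) in MLL-AF9 cells. In log2 units Hoxa7 rose by 2.88 ± 0.30 (SE) and the adjusted p was 1.56e-05.

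Hoxa11, a gene of the 5′ end of the cluster that patterns limbs and the reproductive tract, had no count in any WT HSPC library. The neo cultures had 838, 392 and 752 counts and the puro cultures had 2134, 1102 and 2493. A count of 0 allows up to 3 counts, which is 0.0629 to 0.1102 CPM in the WT libraries. Against the highest of these floors, the mean of 24.96 ± 16.2 CPM (SD, n = 6) in MLL-AF9 cells was at least 226.5-fold higher, and the lowest culture was at least 70.4-fold higher. The adjusted p was 2.34e-05.

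Hoxa2, a gene of the 3′ end of the cluster that patterns the hindbrain, had 0 to 3 counts in WT HSPCs. The neo cultures had 127, 37 and 52 counts and the puro cultures had 85, 77 and 130. In MLL-AF9 cells it was the lowest of the 5 genes in CPM, at 1.64 ± 0.731 (SD, n = 6). The summed counts, 508 in MLL-AF9 cells and 7 in WT HSPCs, gave a ratio of 34.7 after scaling (95% exact interval 16.7 to 86.9, counting error only). The adjusted p was 9.01e-05.

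Hoxa2 and Hoxa11 passed the filter on low counts through the MLL-AF9 libraries alone and had to differ, whereas Hoxa7, Hoxa9 and Hoxa10 had at least 10 counts in every library. For each of the 5 genes, every culture was above every WT HSPC library, which held for 25.7% of all genes tested. Over all genes tested the log2 fold change had a median of 0.14. With total counts as the only scaling it was 0.69, and the 5 genes were still called higher.

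Hoxa9 was lower in the HSPC libraries with over 25% Gm26917 than in the others of the same genotype. It was 2.84 and 3.71 CPM in the WT libraries over 25% and 4.07 and 6.15 CPM in the other WT libraries. In the Mir139KO libraries it was 3.64 and 4.50 CPM over 25% and 5.73 and 5.75 CPM in the others. No test was run on this difference. All 5 genes were called higher in MLL-AF9 cells against either kind of WT library alone.

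**Figure D2:**
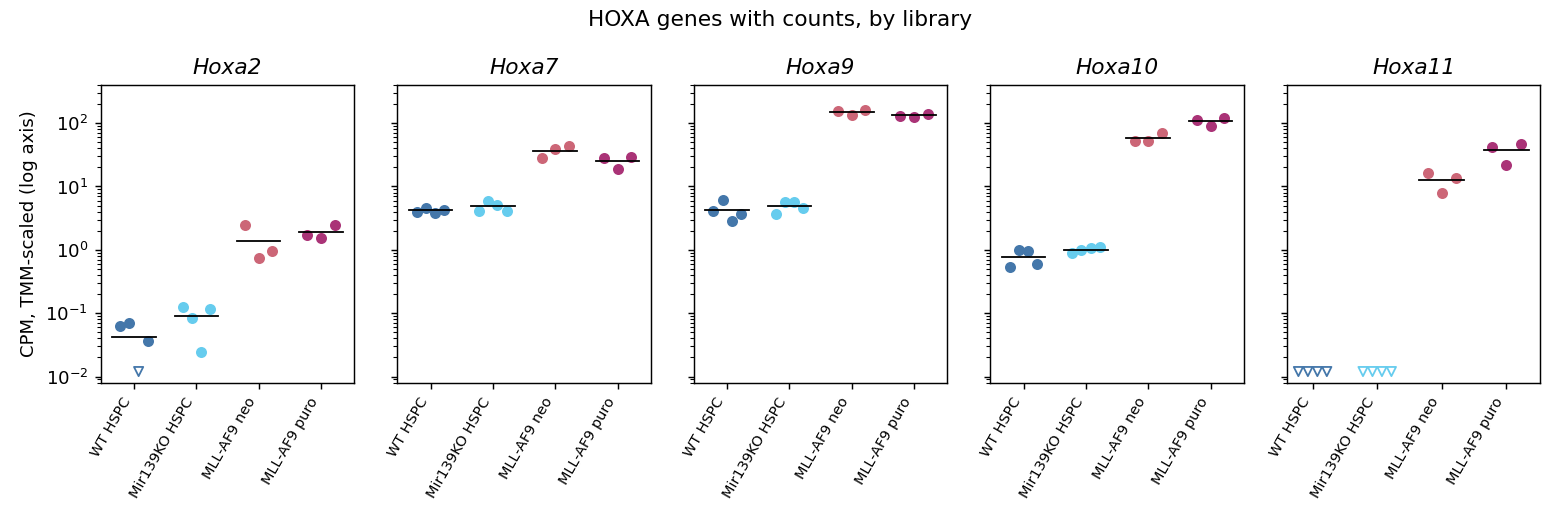
CPM on a log axis of the 5 HOXA genes with counts, for each library (points) and group (black line, mean). Open triangles are libraries at 0. Hoxa11 is at 0 in all 8 HSPC libraries, and for each gene the 6 MLL-AF9 cultures lie above the 8 HSPC libraries.

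The rise was uneven along the cluster, and the make-up of HOXA counts differed between the groups. In WT HSPCs, Hoxa7 took 46.2 ± 5.15% and Hoxa9 took 44.8 ± 6.21% of the counts of the 5 genes (SD, n = 4). In MLL-AF9 cells Hoxa7 took 11.3 ± 3.74%, Hoxa9 50.9 ± 8.37%, Hoxa10 28.8 ± 7.12% and Hoxa11 8.41 ± 4.49% (SD, n = 6). Per count of Hoxa7 there were 0.741 to 1.33 counts of Hoxa9 in the WT HSPC libraries and 3.46 to 6.51 in the cultures. These ranges did not overlap. This ratio within a library does not depend on library scaling, and no test was run on it.

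**Figure D3:**
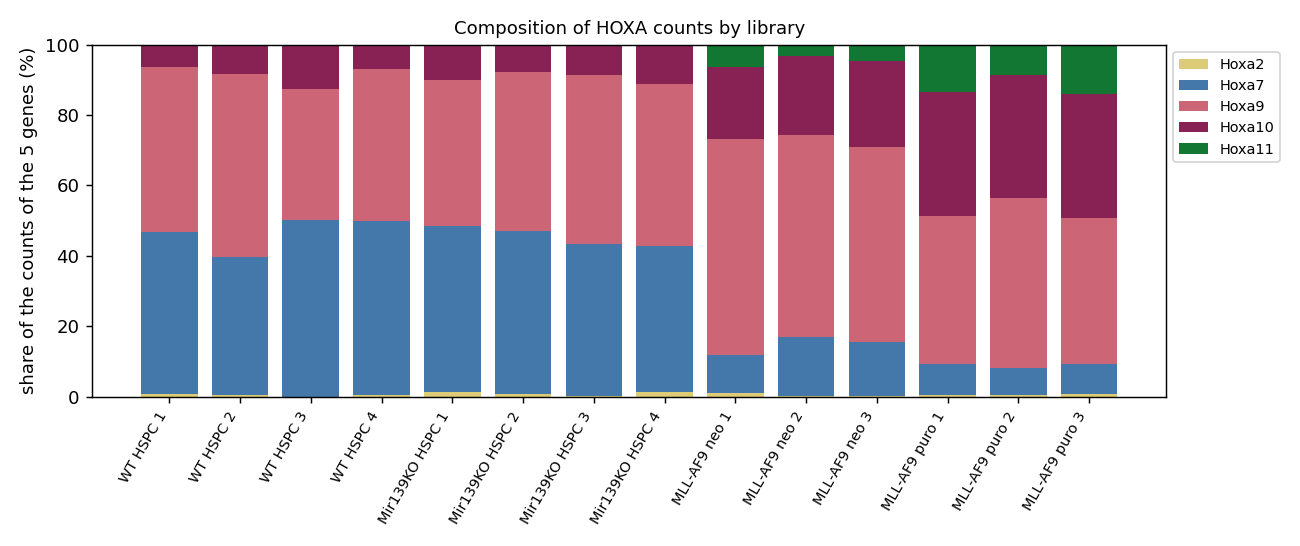
Share in percent of the summed counts of Hoxa2, Hoxa7, Hoxa9, Hoxa10 and Hoxa11 that each gene took, for each library. Hoxa7 and Hoxa9 take similar shares in HSPC libraries. Hoxa9 and Hoxa10 lead in MLL-AF9 cultures, where Hoxa11 is present too.

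Levels of different genes can only be compared per length. Among the HOXA genes with counts, Hoxa7 was the highest per kb of exon in WT HSPCs, at 1.45 ± 0.118 CPM per kb. Hoxa9 at 0.751 ± 0.251 and Hoxa10 at 0.236 ± 0.0732 were below it (SD, n = 4). In MLL-AF9 cells, Hoxa9 at 25.3 ± 2.63 and Hoxa10 at 25.3 ± 8.89 CPM per kb did not differ beyond their spread (SD, n = 6). Hoxa11 at 10.9 ± 7.10 and Hoxa7 at 10.9 ± 3.05 CPM per kb were next, also within their spread, and Hoxa2 was last at 0.925 ± 0.412. The counts appear to take in introns, as genes were at 0 when their whole span was covered. Per kb of span outside other genes, the order in MLL-AF9 cells was Hoxa9 at 17.9, Hoxa11 at 10.9, Hoxa10 at 8.56, Hoxa7 at 4.61 and Hoxa2 at 1.74 CPM per kb. On that scale Hoxa7 at 0.616 ± 0.0501 and Hoxa9 at 0.530 ± 0.177 CPM per kb were within their spread in WT HSPCs (SD, n = 4). Per kb of exon outside other genes, Hoxa11 at 16.8 ± 10.9 and Hoxa7 at 13.6 ± 3.83 CPM per kb were within their spread in MLL-AF9 cells (SD, n = 6). The order of Hoxa7 and Hoxa9 in WT HSPCs and the positions of Hoxa10 and Hoxa11 in MLL-AF9 cells thus depend on the length used.

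The comparison of Mir139KO with WT HSPCs asked whether loss of the microRNA alone moves these genes. No HOXA gene passed the test. Hoxa7, Hoxa9 and Hoxa10 were tested, and 0 of the 3 were called. Of all 15056 genes tested with edgeR, 0 were called (0%), while 86 had an unadjusted p under 0.05, and DESeq2 called 0 as well.

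Hoxa9 had 86, 201, 235 and 114 counts in Mir139KO HSPC libraries 1 to 4. Its log2 fold change against WT was 0.22 ± 0.31 (SE). The ranges overlapped, at 3.64 to 5.75 CPM in Mir139KO and 2.84 to 6.15 CPM in WT HSPCs.

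Hoxa7 had 98, 208, 212 and 103 counts in the Mir139KO libraries. This was 0.20 ± 0.25 above WT on the log2 scale (SE). Hoxa10 had 21, 35, 43 and 28 counts. This was 0.38 ± 0.30 above WT on the log2 scale (SE). The adjusted p of each of the 3 genes was 0.9999. Their ranges in CPM overlapped between the genotypes, and groups without overlap were seen for 0.458% of all genes tested. Hoxa2 had 1 to 3 counts and Hoxa11 had 0 in each Mir139KO library.

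Against Mir139KO HSPCs, the 5 genes with counts were again higher in MLL-AF9 cells, where 37.3% of 16953 genes were called higher. Hoxa2 and Hoxa11 again passed the filter through the MLL-AF9 libraries alone and had to differ. Only the calls of Hoxa7, Hoxa9 and Hoxa10 could have come out otherwise. This comparison uses the same cultures as the one with WT HSPCs, so it is no second test of them. The log2 fold change was 6.32 ± 0.37 for Hoxa10, 4.81 ± 0.24 for Hoxa9 and 2.66 ± 0.29 for Hoxa7 (SE). Adjusted p-values were 1.55e-07, 4.31e-08 and 8.93e-06. The mean of Hoxa11 in the cultures was at least 196.8-fold above the highest floor of the Mir139KO libraries. Hoxa2 had a scaled ratio of 20.5 (95% exact interval 11.1 to 43.1, counting error only).

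**Figure D4:**
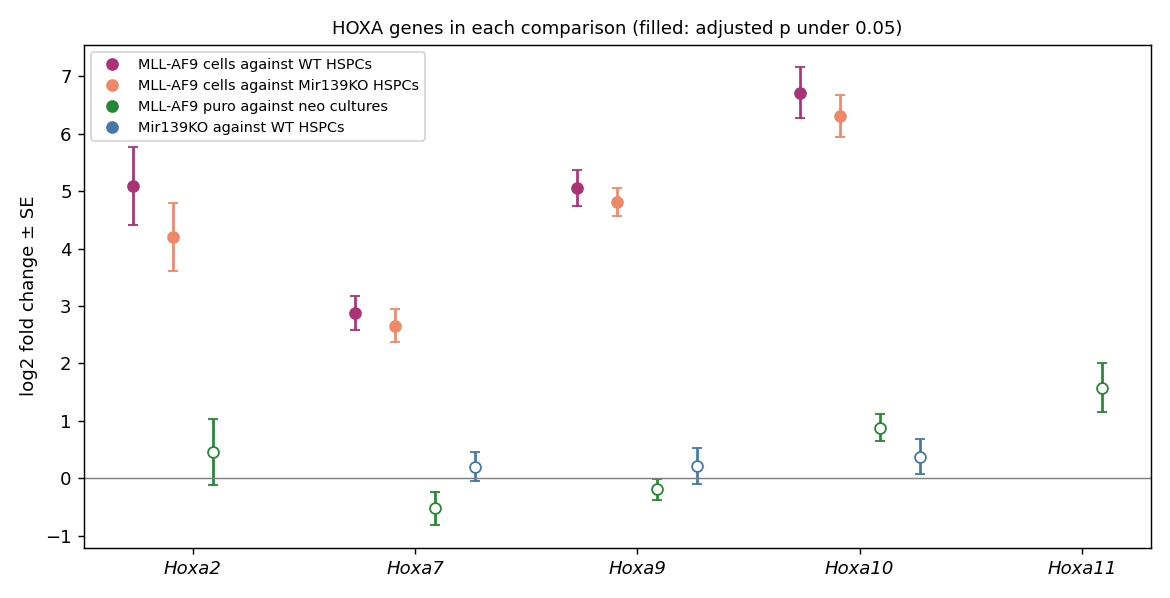
Log2 fold change with its SE for each HOXA gene tested in each comparison, filled where the adjusted p was under 0.05. Hoxa11 is shown for puro against neo only, since it was at 0 in the HSPCs. Changes against HSPCs lie between 2.66 and 6.72, and those between vectors or genotypes near 0 or below 2.

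The puro and neo cultures were compared to see whether HOXA levels were alike in MLL-AF9 cells made with either vector. Of the 5 genes tested, 0 were called, where 0.873% of 16503 genes were called. Hoxa10 and Hoxa11 were without overlap between the vectors, both higher with puro, and 19.9% of all genes tested were without overlap. A p that misses the threshold does not show that the vectors act alike.

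Hoxa11 was 16.2, 7.76 and 13.8 CPM in the neo cultures and 42.6, 22.03 and 47.3 CPM in the puro cultures. The lowest puro culture was above the highest neo culture. The log2 fold change was 1.58 ± 0.43 (SE) and the adjusted p was 0.165. Hoxa10 was 52.4, 52.2 and 70.8 CPM in the neo cultures and 111, 90.0 and 120 CPM in the puro cultures. For Hoxa10 the log2 fold change was 0.88 ± 0.24 (SE) and the adjusted p was 0.161.

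These 2 genes crossed the threshold under some other settings. DESeq2 gave adjusted p-values of 0.0176 for Hoxa11 and 0.0231 for Hoxa10. Without puro culture 2, which had the lowest Hoxa10 and Hoxa11 of the 3 puro cultures, edgeR gave 0.0366 and 0.0465. That left puro cultures 1 and 3, whose libraries were much alike (Pearson r of log2 CPM of 0.995). Their r with puro culture 2 was 0.910 and 0.912. Cultures 1 and 3 may thus not be separate replicates, and with the 2 summed, 0 of the 5 HOXA genes were called. Some summed marker levels were also without overlap between the vectors. The 5 markers of stroma and endothelium summed to 14.7 to 23.2 CPM in neo and 70.2 to 115 CPM in puro cultures. The 6 B cell markers summed to 5.56 to 6.34 CPM in neo and 1.58 to 4.02 CPM in puro cultures, and the 5 T and NK cell markers to 1.76 to 2.22 CPM and 3.52 to 11.8 CPM. In these lists, 3 of the 5, 4 of the 6 and 4 of the 5 genes were barely detected in either vector. Each of these sums thus rests on few genes and does not show a cell type. The sums of the other 6 marker lists overlapped. Neutrophil markers summed to 1660 to 3779 CPM in neo and 249.99 to 1661 CPM in puro cultures, and the 4 primary granule markers to 565 to 1388 CPM and 1360 to 3336 CPM. Of the single marker genes, Camp, Pecam1 and Ly86 were called between the vectors, where 0.873% of all genes tested were. Camp lost its call under 5 of 15 alternatives, Pecam1 under 6 of 15 and Ly86 under 8 of 14. The part of these markers in the levels of Hoxa10 and Hoxa11 was not tested.

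The other 3 genes overlapped between the vectors. Hoxa9 was 133 to 161 CPM in neo and 124 to 140 CPM in puro cultures. The log2 fold change was -0.19 ± 0.18 (SE) and the adjusted p was 0.703. Hoxa7 had a log2 ratio of -0.52 ± 0.29 (SE) and the adjusted p was 0.507. Hoxa2 had a log2 ratio of 0.46 ± 0.57 (SE) and the adjusted p was 0.770, and neo culture 1, at 2.46 CPM, lay beside the highest puro culture, at 2.47 CPM.

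The share of HOXA counts taken by Hoxa10 was 22.4 ± 1.96% in neo and 35.2 ± 0.173% in puro cultures (SD, n = 3 each). Per count of Hoxa9 there were 0.334 to 0.439 counts of Hoxa10 in the neo cultures and 0.724 to 0.857 in the puro cultures. These ranges did not overlap. No test was run on the ratio.

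Other genes of the locus were higher in MLL-AF9 cells too. Of the 33 other genes in the window, 16 had no base of their own and 9 passed the filter against WT HSPCs, and 9 of 9 were called higher in MLL-AF9 cells, where 32.8% of all genes tested were. Of the 9, 4 were at 0 in every HSPC library, namely Hoxa11os, Hoxa13, Hottip and 9530018H14Rik. They passed the filter through the cultures alone and had to differ.

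Hoxa11os, the antisense RNA of Hoxa11, had 508, 164 and 324 counts in the neo cultures and 791, 233 and 920 in the puro cultures. Without strand, reads of Hoxa11 and Hoxa11os cannot be told apart where the genes overlap, but such bases appear to give no counts to either gene. Hoxa13, the last gene of the cluster at its 5′ end, ranged from 6 to 249 counts, and puro culture 2 was the lowest of the 6. Hottip, a noncoding RNA upstream of Hoxa13, had 11, 0 and 11 counts in neo and 45, 3 and 37 in puro cultures. Its log2 fold change between the vectors was 2.01 ± 1.25 (SE, adjusted p of 0.559). Against either kind of WT library alone, with over 25% or at most 25% Gm26917, Hottip was not called higher, with adjusted p-values up to 0.0768.

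At the 3′ end, Hotairm1, a noncoding RNA known from myeloid maturation, was already present in WT HSPCs at 0.592 ± 0.247 CPM (SD, n = 4). It was 4.22 ± 2.52 CPM (SD, n = 6) in MLL-AF9 cells. Hotairm1 rose by 2.82 ± 0.59 on the log2 scale (SE) and the adjusted p was 0.00147. Evx1 and Halr1, which flank the cluster, had 0 counts in every HSPC library. In the cultures their means were 0.00656 and 0.0262 CPM, below the floor of 3 counts.

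HOX genes of the other clusters were mostly at 0 or too low to test. Of 28 such genes, 8 had no base of their own, and as for Hoxa3 to Hoxa6, their zeros would not measure expression. Of the 28, 14 were at 0 in all libraries and 3 passed the filter. Of these 3, Hoxb13 and Hoxb3 were called higher in MLL-AF9 cells and 0 were called lower, where 32.8% of all genes tested were called higher. Hoxb13, the last gene of the HOXB cluster, was at 0 in all 4 WT libraries and had 120 to 262 counts in the 6 cultures, so it passed the filter through the cultures alone and had to differ. Hoxb3 had an adjusted p of 0.0498 at a log2 fold change of 2.63 ± 1.08 (SE). It was 20.3 and 16.2 CPM in puro cultures 1 and 3 and 0.574 to 1.39 CPM in the other 4 cultures. The call was lost under 12 of 25 alternatives, among them leaving out either of these 2 cultures or any WT library, with adjusted p-values up to 0.941. Hoxb7, Hoxb8 and Hoxb9, named after their values were seen, were high in puro cultures 1 and 3 as well. Hoxb7 had 325 and 343 counts there, Hoxb8 had 573 and 622, and Hoxb9 had 231 and 259. The 3 genes had 0 to 5 counts in the other 12 libraries and did not pass the filter.

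Among the DNA-binding partners of HOX proteins, 8 of 9 TALE genes were tested. In MLL-AF9 cells 3 were called higher and 1 was called lower, where 32.8% of all genes tested were called higher and 62.2% in either direction. The number of TALE genes called was thus not unusual. The median log2 fold change of the TALE genes was 0.64, against 0.14 for all genes tested. Meis1, whose protein binds DNA with HOXA9, was 19.6 ± 7.81 CPM (SD, n = 4) in WT HSPCs and 463 ± 370 CPM (SD, n = 6) in MLL-AF9 cells. Its log2 fold change was 4.55 ± 0.71 (SE) and the adjusted p was 0.000237. Pbx3, another partner of HOXA9, rose by a log2 fold change of 4.74 ± 0.70 (SE) and the adjusted p was 0.00016.

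Pknox2, a relative of MEIS genes, rose by 3.80 ± 0.94 on the log2 scale (SE) and the adjusted p was 0.00414, with a range of 1.42 to 33.8 CPM over the cultures. Against the WT libraries with at most 25% Gm26917 alone, Pknox2 was not called (adjusted p of 0.0838). Pbx4, another PBX gene, had a log2 fold change of -2.498 ± 0.53 (SE) and an adjusted p of 0.00159. Between the vectors, Pbx3 alone of the TALE genes was called, where 0.873% of all genes tested were. Pbx3 was 60.7, 73.0 and 93.7 CPM in the neo cultures and 275, 528 and 283 CPM in the puro cultures (log2 fold change 2.23 ± 0.30, adjusted p of 0.0341). This call of Pbx3 was lost without any 1 of neo cultures 1 to 3 or puro cultures 1 and 3, with adjusted p-values up to 0.156. Meis1 had no overlap between the vectors, at 127 to 246 CPM in neo and 445 to 917 CPM in puro cultures, but was not called in the main test (log2 fold change 2.20 ± 0.43, adjusted p of 0.0801). It was called under 5 of 15 alternatives.

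Genes that regulate HOXA transcription moved in both directions. Of 12 listed genes 9 were tested, of which 5 were called higher in the cultures and 3 lower. Over all genes tested, 32.8% were called higher and 62.2% in either direction. Kmt2a and Psip1 lost their calls under 5 of 25 alternatives each, and Dot1l under 2. Mllt10 and Aff4, which encode partners of DOT1L and of the elongation machinery, rose by 2.497 ± 0.30 and 2.17 ± 0.38 on the log2 scale (SE). Men1, which encodes the MLL cofactor menin, fell by 2.17 and Mllt1 fell by 1.90 on the log2 scale, with adjusted p-values of 0.000106 and 0.000349.

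Genes reported as HOXA9 or MEIS1 targets were split as well. Of 12 tested, 5 were called higher and 4 lower, with a median log2 fold change of 0.78, against 0.14 for all genes tested. The shares over all genes tested were 32.8% called higher and 62.2% called in either direction, so these counts were not unusual. Sox4, Lmo2, Foxp1 and Cdk6 lost their calls under 1 to 3 of 25 alternatives each. Igf1, a growth factor gene, rose by 2.08 ± 0.45 and Pim1, a kinase gene, by 1.98 ± 0.28 on the log2 scale (SE). After the GC correction Igf1 was no longer called (adjusted p = 0.730). The progenitor receptor gene Flt3 fell by 5.27 and the progenitor surface gene Cd34 fell by 5.50 on the log2 scale. Flt3 and Cd34 are also among the 9 stem and progenitor markers above, of which 6 were called lower and 0 higher.

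**Figure D5:**
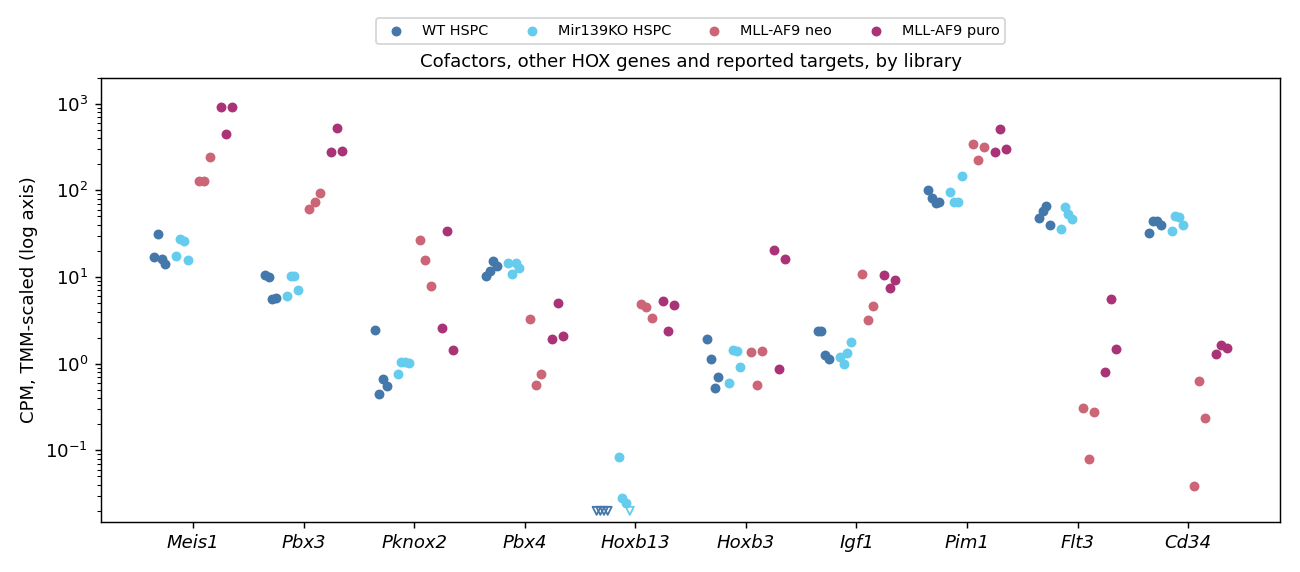
CPM on a log axis of the genes named from the lists of cofactors, other HOX genes and reported targets, for each library by group. Open triangles are libraries at 0. Meis1 and Pbx3 lie higher in all 6 MLL-AF9 cultures than in the HSPC libraries, and Flt3 and Cd34 lie lower.

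The genes whose pattern was most like the summed level of the 5 HOXA genes were looked up by Pearson r of log2 CPM. Over all 14 libraries, the 8 nearest of 17072 genes were Gm27898, Dach1, Gm18905, Nubpl, Rbfox2, Firre, Gm4258 and Hoxa11os, with r from 0.990 to 0.994. These values mostly restate the gap between HSPCs and cultures. Dach1, a transcriptional cofactor gene, had a mean of 11.01 CPM in WT HSPCs and 464 to 1137 CPM in the cultures. Over the 6 MLL-AF9 cultures alone, the 8 nearest of 16498 genes were Sult1a1, Mapk4, Slc41a1, Miga2, Gm20460, Thsd4, Per1 and Fam174a, with r from 0.979 to 0.986. The 2 lists share no gene, and with 6 points such values are a description only.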

How the data were processed

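Total RNA depleted of ribosomal RNA was sequenced in 14 libraries. The deposited values are raw counts per gene, with no normalization. Per the submitters' processing notes and the study's methods, the authors mapped reads to GRCm38 with STAR 2.5.3e and counted them with featureCounts 1.6.0. The strand setting and the handling of reads on several genes are not given in the sources used here. The deposited tables also hold 10 columns of another series, which were not used. Of 52550 gene identifiers, 52403 were found in GENCODE M21, a later release than the one the authors used, and coordinates and spans are from it.

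A gene was tested if it reached 10 counts in as many libraries as the smaller group has, or more. The test was the quasi-likelihood F test of edgeR 4.0.16 (limma 3.58.1, R 4.3.3), with TMM factors and robust dispersions. Only the 2 groups compared entered a fit. A gene was called where its p, adjusted by Benjamini-Hochberg over all genes tested, was under 0.05. SEs were computed as log2 fold change over the root of F. CPM used TMM factors over all 14 libraries, and a floor was 3 counts. Log2 CPM used a prior count of 2. Intervals and floors cover counting error only. The steps were tested on simulated data.

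The HOXA genes, gene lists and tests were chosen with earlier results of these data known. Named were the 9 genes, their neighbours within 100000 bases, from each list up to 5 genes called against WT HSPCs with the largest change and up to 5 called between vectors, and 8 genes per likeness measure. Alternatives were RLE factors, total counts only, DESeq2 1.42.0, other filters, a replicate block, each replicate left out, all libraries in a single fit, Gm26917 left out, its share class (split at 25%), each vector alone, puro cultures 1 and 3 summed, a GC correction and the other count table. Lengths outside the span of other genes were chosen after seeing the data. Certain named genes are not reported here.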

Additional observations from a re-analysis of the deposited data

How the results depend on the processing

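In the comparisons of MLL-AF9 cells with WT and with Mir139KO HSPCs, the HOXA genes tested were called higher under each alternative run. Among them, Hoxa2 and Hoxa11 were at or near 0 in the HSPCs and had to differ. Only 4 genes were tested with a mean of at least 100 counts, since Hoxa2 was then filtered out. Over the alternatives against WT HSPCs, the log2 fold change ranged from 4.74 to 5.57 for Hoxa9, 6.25 to 7.32 for Hoxa10 and 2.62 to 3.46 for Hoxa7. Between Mir139KO and WT HSPCs, 0 HOXA genes were called under each alternative.

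Between puro and neo cultures, 0 of 5 genes were called, 2 with DESeq2 and 1 with the replicate block (Hoxa11, adjusted p = 0.0428). Leaving out 1 culture gave 0 to 2. The count over all genes was 144 in the main fit, 1326 with DESeq2, 221 without a filter, 761 with all 14 libraries in a single fit and 5 with puro cultures 1 and 3 summed. Leaving out 1 culture gave 0 to 990, the highest without puro culture 2. The cause was not tested. The adjusted p over the alternatives ran from 0.0176 to 0.507 for Hoxa11 and from 0.0231 to 0.538 for Hoxa10.

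Replicate numbers were not taken to pair samples. Deviations of same-numbered WT and Mir139KO libraries correlated at -0.59 to 0.66, and those of neo and puro cultures at -0.33 to 0.46. The block changed no other call of a HOXA gene.

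Per kb in MLL-AF9 cells, total counts in place of TMM-scaled totals gave 33.0 CPM for Hoxa9 and 14.1 CPM for Hoxa7. Depth limits Hoxa2 and Hoxa11 in HSPCs, where counts lay at or under the floor, and the counting rule leaves Hoxa3 to Hoxa6 without a value.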
